A study of Mus musculus with 4 samples.

Results

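The genes described are Trp53, which encodes the transcription factor p53, and 8 genes that p53 is known to switch on: Mdm2, Cdkn1a, Ccng1, Zmat3, Trp53inp1, Bax, Bbc3 and Pmaip1. They were chosen by name as p53 and its classic targets, 9 genes of the 33783 named in the tables. All 9 were measured in the liver libraries, and 3 of them (Trp53, Mdm2 and Ccng1) in the embryo libraries, whose tables share chromosomes 10 and 11 and part of chromosome 12 (that of Adar1-/- Mavs-/- goes on into chromosome 13). The libraries hold total RNA of mice that, by their labels, lack Adar1, the enzyme that turns adenosine into inosine in double-stranded RNA, alone or together with Mavs, the adaptor through which RIG-I and MDA5 signal the presence of such RNA. The 4 libraries, 1 per group, came from whole embryos of strain C57B16/N at E11.5 with genotype Adar1-/- or Adar1-/- Mavs-/-, and from embryonic livers of strain C57B6/J at E15.5 with the same pair of genotypes. Every group therefore carries the Adar1-/- label, and no library with intact Adar1 was analysed here. The sources used here do not say how the alleles were made, whether animals were pooled, or how Adar1-/- livers were obtained at E15.5.

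The p53 protein is made at all times and destroyed at once by the ubiquitin ligase MDM2, whose own gene is a p53 target, so that the pair forms a feedback loop. DNA damage and other stresses break that contact, and p53 then binds its sites and turns on genes that halt the cell cycle, repair DNA or start mitochondrial cell death. Because p53 is regulated mainly at the level of protein, the RNA of its targets is the usual readout of its activity in tissue.

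The promoters of 3 targets are printed because each holds a pair of p53 decamers, the 10-base unit that p53 binds, with at most 1 mismatch over both. They are RefSeq sequences of build GRCm38.p6, 250 bases before to 50 after a gene's start, 5′ to 3′ on the gene's strand, with decamers that belong to such a pair in capitals.
Cdkn1a (upstream start, chr17:29090729-29091028, plus strand): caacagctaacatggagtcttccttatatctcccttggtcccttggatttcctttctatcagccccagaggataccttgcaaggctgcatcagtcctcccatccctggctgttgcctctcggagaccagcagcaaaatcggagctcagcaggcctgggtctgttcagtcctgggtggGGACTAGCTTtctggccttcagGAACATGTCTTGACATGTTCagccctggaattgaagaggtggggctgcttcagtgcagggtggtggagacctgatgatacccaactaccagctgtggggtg
Ccng1 (chr11:40755237-40755536, minus strand): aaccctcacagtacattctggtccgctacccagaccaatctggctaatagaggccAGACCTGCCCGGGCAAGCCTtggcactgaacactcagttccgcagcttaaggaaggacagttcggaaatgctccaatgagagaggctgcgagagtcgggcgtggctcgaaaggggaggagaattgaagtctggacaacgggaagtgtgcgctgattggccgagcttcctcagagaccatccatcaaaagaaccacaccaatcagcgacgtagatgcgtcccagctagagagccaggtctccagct
Bax (chr7:45466849-45467148, minus strand): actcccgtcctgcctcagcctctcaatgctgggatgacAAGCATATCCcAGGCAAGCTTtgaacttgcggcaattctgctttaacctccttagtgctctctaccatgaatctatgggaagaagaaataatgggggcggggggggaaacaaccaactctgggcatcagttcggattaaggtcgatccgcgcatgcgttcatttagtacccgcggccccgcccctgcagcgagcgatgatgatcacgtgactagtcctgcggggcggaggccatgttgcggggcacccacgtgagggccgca

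RefSeq promoters were given for 6 of the 9 genes, 9 promoters in all, and not for Pmaip1, Trp53inp1 and Zmat3. The motif searched was the p53 decamer consensus, which is its own reverse complement, so that a search of 1 strand reads both. A pair was allowed a spacer of up to 13 bases. In the Cdkn1a promoter, decamers without a mismatch start 73 and 51 bases before the upstream start, and the second is followed directly by another with a mismatch, as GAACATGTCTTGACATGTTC. Ccng1 has the pair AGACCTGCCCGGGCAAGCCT starting 195 bases before its start, and Bax the pair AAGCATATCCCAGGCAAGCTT starting 212 bases before. Among all 32851 RefSeq promoters of the same length, 8.36% hold a decamer without a mismatch, 1.09% a pair with at most 1 mismatch and 0.0731% a pair with none. Of the 6 genes with a promoter read, 5 hold a decamer without a mismatch, 3 hold a pair with at most 1 mismatch, and 1 (Cdkn1a) holds a pair with none. A match is a description of the letters, not a bound site.

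Levels are given as FPKM, the fragments of a transcript divided by its length and by the mapped fragments of the library, which allows genes of different length to be compared. A gene's value is the sum over its isoforms, and the range in brackets after it, the lower and upper bound in the files, covers estimation within that library only. Log2 ratios are of FPKM plus 1, Adar1-/- Mavs-/- over Adar1-/- in the same tissue, after a scaling that sets the median gene to no change. With 1 library in each group there is no replicate and no test, so every difference is between libraries and cannot be set against a spread between animals. A gene was counted when it reached 1 FPKM in either library, and a log2 ratio of 1 or more in size is called 2-fold. Coverage per FPKM, which follows sequencing depth, was 3.48 for Adar1-/- and 5.62 for Adar1-/- Mavs-/- in embryos, and 8.58 and 7.13 in livers in that order.

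The labels could be checked in part in liver, where Adar was measured. In the library labelled Adar1-/-, 0 of the 8 annotated Adar isoforms were above 0. The longest stretch spanned by no isoform held 16246 of the gene's 38425 bases. In the library labelled Adar1-/- Mavs-/-, 3 of the 8 were above 0 and no base was left unspanned. The livers thus differed at Adar, although both carry the Adar1-/- label. A span includes introns, so a missing exon would not show, and the check cannot decide whether the Adar1 label of either library is right. Adar had 5.56 FPKM (5.28–5.84) and 4.11 FPKM (3.86–4.36) in these libraries, and Mavs had 7.26 and 9.96 FPKM. Mavs also kept 2 of 4 annotated isoforms above 0 and no unspanned base in the library labelled as lacking it. An RNA level cannot decide the Mavs label either, since the design of the allele is not stated. The liver labels thus remain unverified. Liver directions below are therefore directions between the library labelled Adar1-/- and the library labelled Adar1-/- Mavs-/-. Both genes lie outside the embryo tables used here, so the embryo labels have no such check.

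In liver, 7 of the 8 counted genes were lower in the library labelled Adar1-/- Mavs-/-, and Ccng1 alone was higher. Of all 13849 genes counted, 58.0% were lower by the same measure. Trp53 and Cdkn1a were at least 2-fold lower, 2 of 8 genes, against 9.73% of all genes counted. None of the 8 was at least 2-fold higher, against 6.60% of all. The median log2 ratio of the 8 was -0.62, beside -0.12 for all genes counted. Pmaip1 stayed below 1 FPKM in both libraries and was not counted.

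**Figure D1:**
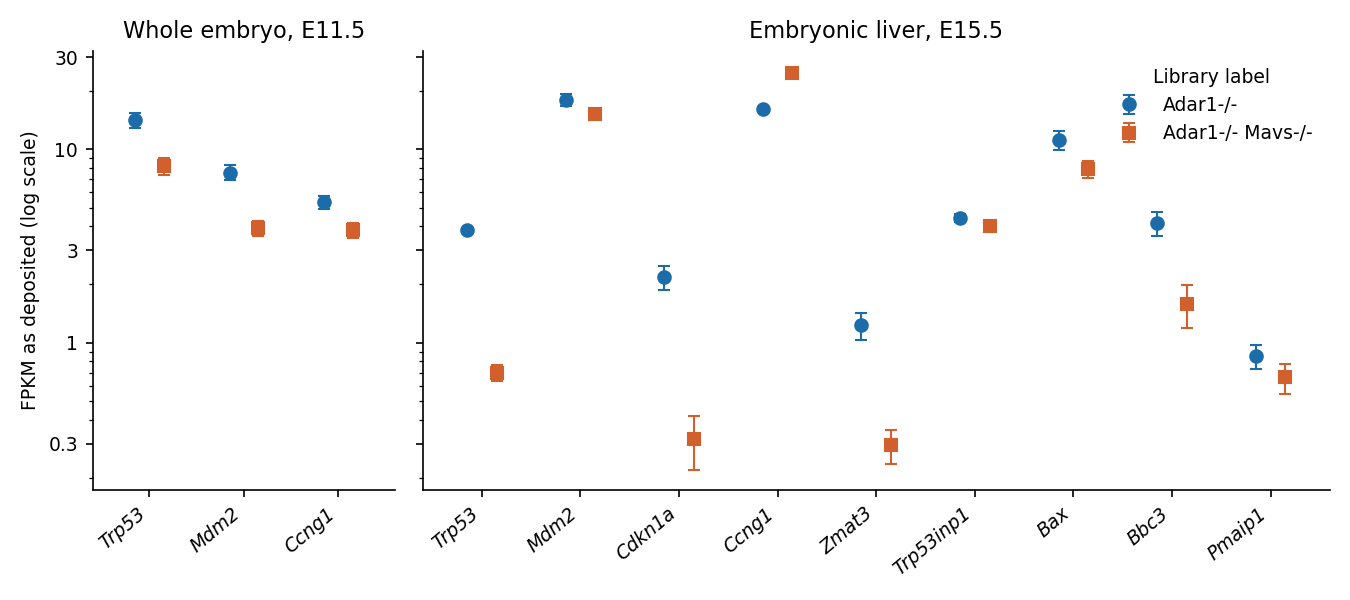
Level of each gene in each library (FPKM as deposited, log axis), with the bounds from the files as bars, in embryos (left) and livers (right); there are no replicates. In liver the bounds of Trp53, Cdkn1a, Mdm2, Ccng1, Bax, Bbc3 and Zmat3 do not overlap between the libraries after scaling, and those of Trp53inp1 and Pmaip1 do.

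The order of levels within a library was similar in both livers. In the library labelled Adar1-/-, Mdm2 was highest at 18.04 FPKM, followed by Ccng1 at 16.2 and Bax at 11.2. Trp53inp1, Bbc3, Trp53, Cdkn1a and Zmat3 followed between 4.42 and 1.23 FPKM, and Pmaip1 was lowest at 0.857 FPKM. Ccng1 led the library labelled Adar1-/- Mavs-/- at 24.9 FPKM, ahead of Mdm2 at 15.3 and Bax at 7.89. There Trp53, Pmaip1, Cdkn1a and Zmat3 were all below 1 FPKM. Bounds of neighbours in this order overlapped for Trp53inp1 and Bbc3 and for Bbc3 and Trp53 in the library labelled Adar1-/-, and for Trp53 and Pmaip1 and for Cdkn1a and Zmat3 in the other.

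Trp53 itself (chromosome 11, 69393861 to 69405375, mm9) had 3.81 FPKM (3.69–3.92) in the liver labelled Adar1-/- and 0.700 FPKM (0.633–0.767) in that labelled Adar1-/- Mavs-/-, a log2 ratio of -1.502. On this scale no other of the 9 genes differed more, but at a pseudocount of 0.1 Cdkn1a did (-2.45 against -2.29), and with every isoform over the gene Cdkn1a, Bbc3 and Zmat3 did (-1.76, -1.36 and -1.10 against -0.86). The value does not rest on the known transcripts: all 6 annotated Trp53 isoforms were listed at 0 in all 4 libraries. In the liver library labelled Adar1-/-, the level came from a pair of isoforms assembled from the reads, with 2.30 and 1.503 FPKM, which run from 69385019 to 69406016 and so begin inside the neighbouring gene Wrap53. Their lengths of 18125 and 14247 bases compare with 1772 for the annotated Trp53-201 isoform, so most of their length is sequence that the annotated mRNA lacks.

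Wrap53 encodes a factor for telomerase assembly and lies head to head with Trp53. In the liver library labelled Adar1-/-, no isoform counted under Wrap53 was above 0. In the library labelled Adar1-/- Mavs-/-, the annotated Wrap53 isoform had 2.43 FPKM (2.14–2.73), and a further assembled isoform over both genes, counted under Wrap53, had 0.954 FPKM. Adding that isoform to Trp53 gave 1.65 FPKM and a log2 ratio of -0.86, short of 2-fold. The strand setting of the libraries is not stated, so reads of these overlapping genes cannot be told apart.

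**Figure D2:**
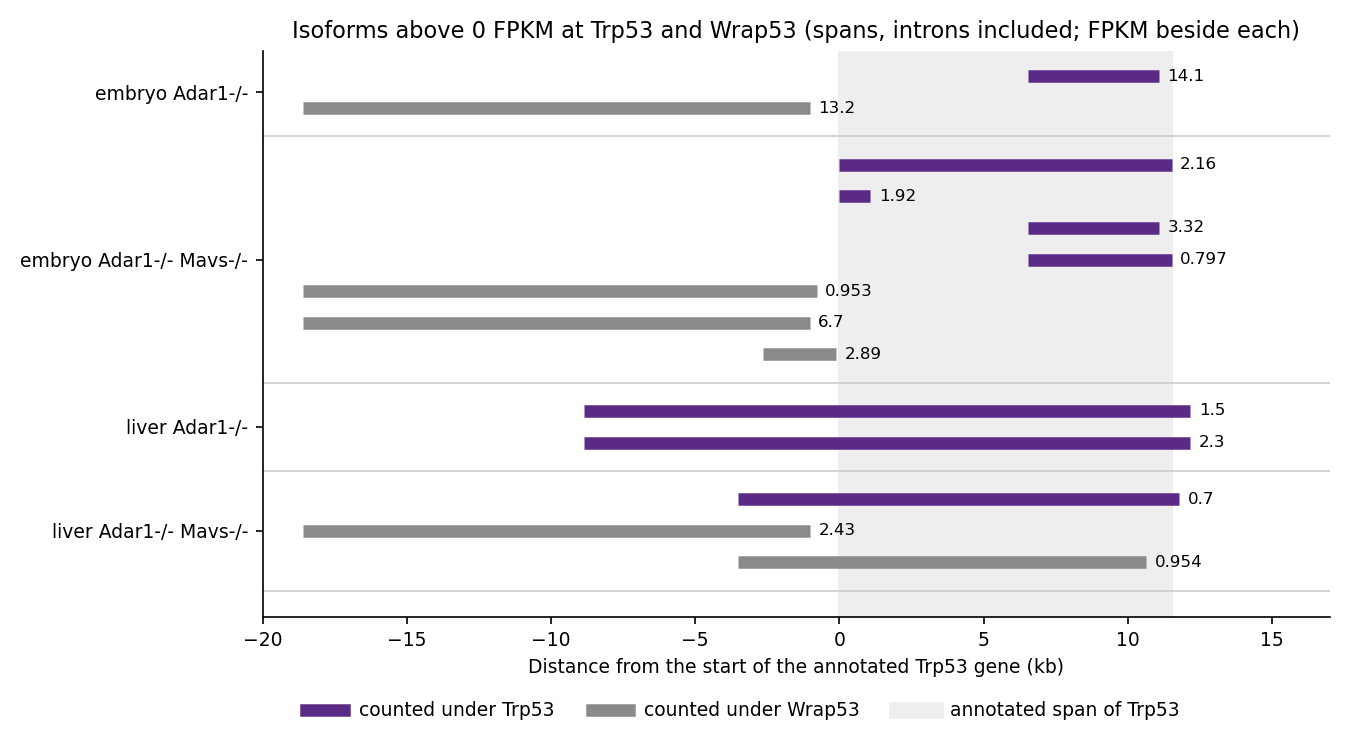
Isoforms above 0 FPKM over Trp53 and Wrap53 in the 4 libraries, drawn to scale by distance from the annotated Trp53 start, with the FPKM of each beside its line. In the livers the Trp53 level comes from long assembled isoforms of 2.30 and 1.503 FPKM in one library and 0.700 FPKM in the other, and the annotated Wrap53 isoform is above 0 in the second alone.

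In embryos Trp53 had 14.1 FPKM (12.8–15.4) in the Adar1-/- library and 8.19 FPKM (7.38–9.003) in the Adar1-/- Mavs-/- library, a log2 ratio of -0.34 after scaling by 1.34. Of the Adar1-/- value, 100% was a single isoform of 1096 bases, ENSMUST00000163758, an Ensembl identifier that the annotation used here does not list, estimated with low data by the file's own status. The same isoform had 3.32 FPKM in the Adar1-/- Mavs-/- library, 40.5% of the gene. The other 59.5% came from 3 assembled isoforms, of which the highest ran over the whole gene with 2.16 FPKM. Without estimates marked as low data the log2 ratio was 2.89, and with every isoform lying over the gene it was 0.33, so the direction of Trp53 in embryos turns with the isoforms counted.

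Mdm2 (chromosome 10, 117125944 to 117147814) was the target with the highest level in the liver library labelled Adar1-/-. It had 18.04 FPKM (16.7–19.4) there and 15.3 FPKM (14.7–15.9) in that labelled Adar1-/- Mavs-/-, a log2 ratio of -0.23. In embryos the values for Mdm2 were 7.59 FPKM (6.91–8.26) in Adar1-/- and 3.93 FPKM (3.57–4.28) in Adar1-/- Mavs-/-, a log2 ratio of -0.46. Both differences were short of 2-fold, and the bounds did not overlap in either tissue. Embryo Mdm2 was lower under each of 7 alternatives, from -1.20 to -0.12, whereas liver Mdm2 ran from -0.53 to 0.05, above 0 without estimates marked as low data. Isoforms assembled over Mdm2 without a gene name, which are not in these sums, held 40.9 and 18.04 FPKM in the embryo libraries and 5.15 and 6.47 FPKM in the livers.

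Mdm2 is known to have a second promoter in its first intron, which carries the p53 sites and gives transcripts that begin at exon 2, whereas the first promoter acts without p53. Annotated isoforms that begin at exon 2 or just before it had 6.97 FPKM in the liver labelled Adar1-/- and 7.34 FPKM in the library labelled Adar1-/- Mavs-/-. Those that begin at exon 1 had 6.01 and 3.17 FPKM in the same order. The share of the exon 2 class among annotated Mdm2 was therefore 53.7% and 69.8%. In embryos it was 100% of 3.03 FPKM in Adar1-/- and 0% of 2.09 FPKM in Adar1-/- Mavs-/-. The shares in liver and in embryos thus differed between the libraries in opposite directions. In the 3 libraries where it was above 0, the exon 2 class was a single isoform, Mdm2-209, annotated as a target of nonsense-mediated decay and marked as low data.

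Cdkn1a (chromosome 17, 29227924 to 29237667) encodes p21, the inhibitor of cyclin-dependent kinases through which p53 arrests the cell cycle. It had 2.18 FPKM (1.87–2.48) in the liver labelled Adar1-/- and 0.319 FPKM (0.220–0.417) in that labelled Adar1-/- Mavs-/-, a log2 ratio of -1.27. The main annotated isoform, Cdkn1a-201, had 0.982 FPKM (0.799–1.17) and 0.319 FPKM, so it was lower too. An assembled isoform over the 3′ end of the gene added 1.19 FPKM in the library labelled Adar1-/-. With annotated isoforms alone the log2 ratio was -0.59, short of 2-fold. The isoform from the upstream start, Cdkn1a-202, was listed at 0 in both livers, and the second RefSeq promoter of Cdkn1a holds no decamer without a mismatch.

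Ccng1 (chromosome 11, 40562054 to 40568813) encodes cyclin G1, an early p53 target that acts on MDM2 through the phosphatase PP2A. In liver it had 16.2 FPKM (15.7–16.6) in the library labelled Adar1-/- and 24.9 FPKM (24.3–25.5) in that labelled Adar1-/- Mavs-/-, a log2 ratio of 0.59. All of both values came from the annotated isoform Ccng1-201, and the ratio lay between 0.28 and 0.71 under the alternatives. Ccng1 thus lay on the other side of 0 from the 7 other counted genes. Its estimate in the library labelled Adar1-/- is marked as low data. In embryos it had 5.33 FPKM (4.92–5.74) in Adar1-/- and 3.82 FPKM (3.47–4.17) in Adar1-/- Mavs-/-, and after scaling the bounds overlapped, with a log2 ratio of -0.05. Alternatives for embryo Ccng1 ran from 0.07 with an upper quartile scaling through -0.79 with TPM to -1.07 with every isoform over the gene, where unnamed isoforms held 8.18 FPKM in Adar1-/- and 0.606 FPKM in Adar1-/- Mavs-/-.

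Zmat3 (chromosome 3, 32233718 to 32264600) encodes a zinc finger protein that binds RNA. It had 1.23 FPKM (1.03–1.43) in the liver labelled Adar1-/- and 0.296 FPKM (0.237–0.355) in that labelled Adar1-/- Mavs-/-, a log2 ratio of -0.78. The annotated isoforms alone had 0.241 and 0.296 FPKM, a log2 ratio of 0.06, so the difference lay in assembled isoforms with 0.987 FPKM that the first library had and the second did not. Unnamed isoforms over Zmat3 held 8.59 and 3.78 FPKM in the same order.

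Trp53inp1 (chromosome 4, 11083578 to 11101526) encodes a stress protein that promotes p53 phosphorylation and takes part in autophagy. It had 4.42 FPKM (4.198–4.64) in the library labelled Adar1-/- and 4.03 FPKM (3.80–4.25) in the library labelled Adar1-/- Mavs-/-. The bounds overlapped, and the log2 ratio of -0.11 was close to the median of all genes counted. Across the alternatives it ran from -0.37 to 1.34, so no direction can be given for it.

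The 3 death genes act at the mitochondrial outer membrane: BAX forms the pore that releases cytochrome c, and PUMA (Bbc3) and NOXA (Pmaip1) are BH3-only proteins that unleash it. Bax (chromosome 7, 52717065 to 52722268) had 11.2 FPKM (9.89–12.4) in the library labelled Adar1-/- and 7.89 FPKM (7.09–8.70) in that labelled Adar1-/- Mavs-/-, a log2 ratio of -0.46. Its annotated isoform Bax-201 had 4.40 and 2.35 FPKM, and ENSMUST00000169539, which the annotation does not list, had 4.72 and 3.63 FPKM. Both were lower in the second library, and Bax was lower under each of 7 alternatives, from -0.74 to -0.34.

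Bbc3 (chromosome 7, 16894965 to 16903554) had 4.15 FPKM (3.57–4.74) in the library labelled Adar1-/- and 1.59 FPKM (1.19–1.98) in the library labelled Adar1-/- Mavs-/-. Its log2 ratio of -0.998 lay just short of 2-fold and passed it under 4 of 7 alternatives. The coding isoform Bbc3-201 had 1.13 and 0.424 FPKM, while a retained-intron isoform, Bbc3-203, had 1.44 FPKM and was listed at 0 in the second library. Pmaip1 (chromosome 18, 66618258 to 66625204) had 0.857 FPKM (0.735–0.978) and 0.663 FPKM (0.546–0.780), from its single isoform, with overlapping bounds. Of the 3 death genes, the low-level Bbc3 thus differed most in liver, and Bax held the highest level.

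**Figure D3:**
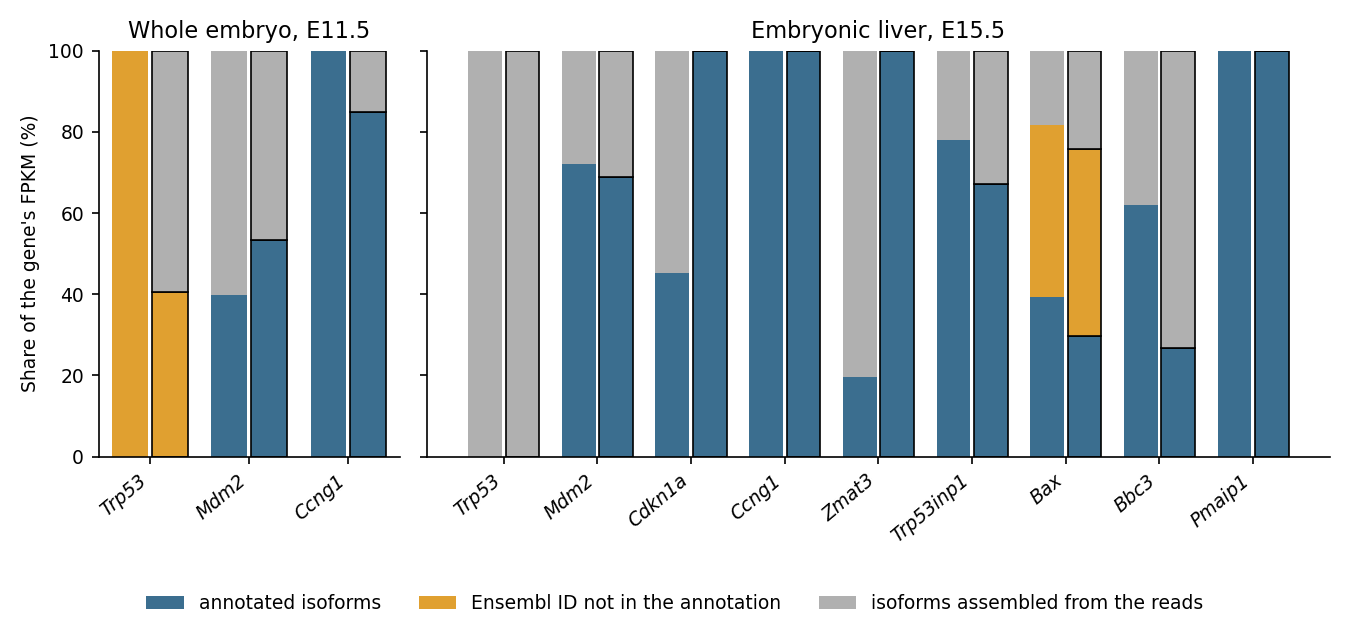
Share of each gene's FPKM (%) from annotated isoforms, from Ensembl identifiers that the annotation does not list, and from isoforms assembled from the reads, with Adar1-/- as the left bar and Adar1-/- Mavs-/- (outlined) as the right bar of each pair. Trp53 has no annotated share in any library, whereas Ccng1 and Pmaip1 are annotated in full in both livers.

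In embryos the 3 genes measured all had a log2 ratio below 0, as did 57.7% of the 1945 genes counted. Ccng1, at -0.05, had overlapping bounds, and the sign of Trp53 turned with the isoforms counted. None was 2-fold lower, against 9.67% of all genes counted, and none 2-fold higher, against 6.84%. Their median log2 ratio was -0.34, which is the value of Trp53, beside -0.11 for all. Between tissues the FPKM of Trp53 was higher in both embryo libraries than in either liver, but it came from different isoforms. In Adar1-/- embryos it was an isoform of 1096 bases, and in the liver labelled Adar1-/- assembled isoforms of 18125 and 14247 bases. FPKM divides by length, so these values do not show in which tissue more Trp53 RNA was read. Ccng1 was higher in both livers than in either embryo library. Mdm2 was too, by isoforms with a gene name, but with the unnamed isoforms over it the embryo values became 48.5 and 21.97 FPKM and the liver values 23.2 and 21.7 FPKM. Tissue, age and strain label change together between embryo and liver, so their parts cannot be told apart.

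**Figure D4:**
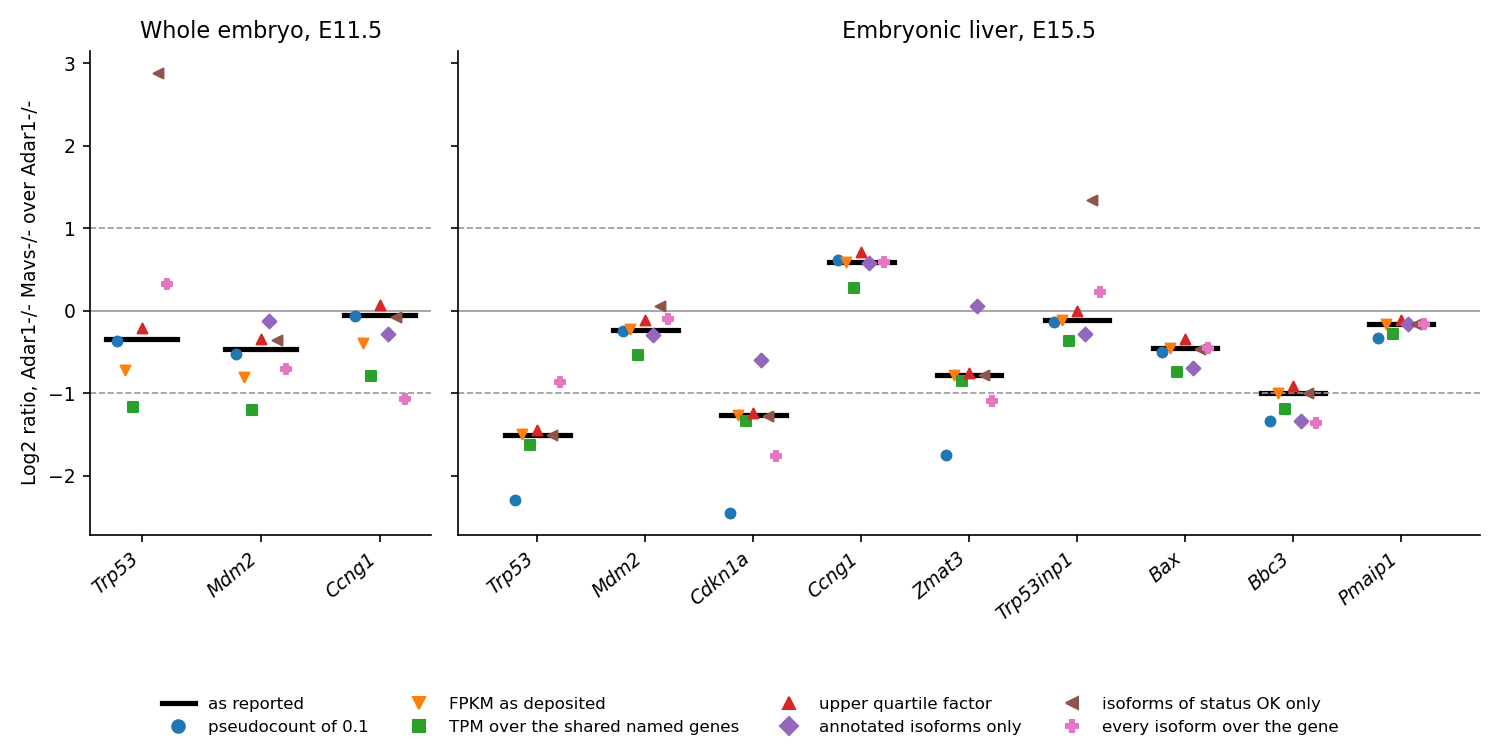
Log2 ratio of each gene, Adar1-/- Mavs-/- over Adar1-/-, as reported and under each alternative (other scalings, pseudocount, isoforms counted and filters), in embryos and livers; dashed lines mark 2-fold. Liver Trp53, Cdkn1a, Bax and Bbc3 stay below 0 and liver Ccng1 above 0 throughout, whereas embryo Trp53 runs from -1.17 to 2.89.

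Other genes of the pathway were read in 4 lists: regulators of p53, and its targets in arrest and repair, in death and survival, and in metabolism and other roles. Of their 77 genes, 57 were counted in liver. At least 2-fold lower were 5 (8.77%) and at least 2-fold higher 2 (3.51%), beside 9.73% and 6.60% of all genes counted. A log2 ratio below 0 was found for 36 of the 57, beside 58.0% of all genes counted. The median was -0.18, beside -0.12 for all. The 8 counted genes named above had a median of -0.62. With annotated isoforms alone 5 of them were counted, without Trp53, Cdkn1a and Zmat3, and their median was -0.29. That of the 4 lists was then -0.28, over 49 genes. Mdm2 was the middle of these 5 genes either way, at -0.23 with all isoforms and -0.29 with annotated ones. The gap between -0.62 and -0.29 thus reflects the genes that dropped out.

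Among 17 regulators the median was 0.13. Chek1, a kinase that acts upstream of p53, had 20.4 FPKM in the library labelled Adar1-/- and 118 FPKM in that labelled Adar1-/- Mavs-/-, a log2 ratio of 2.47. A single Chek1 isoform of 310 bases, with 76.1 FPKM in the second library alone, makes up most of that gap. Hipk2, which phosphorylates p53, had 15.8 and 7.23 FPKM, a log2 ratio of -1.04, from assembled isoforms alone. Rpl26, a ribosomal protein that also promotes p53 translation, was highest at 355 and 459 FPKM.

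Of 17 arrest and repair targets, 2 were at least 2-fold lower and none higher, with a median of -0.19. Sesn2, which restrains mTORC1, had 6.62 and 1.45 FPKM, a log2 ratio of -1.64. Ddb2, a damage sensor of nucleotide excision repair, had 2.18 FPKM in the library labelled Adar1-/- and was listed at 0 in the other. Rb1, the retinoblastoma protein gene, reached the highest level of this list, with 31.2 FPKM in the library labelled Adar1-/- and 58.3 FPKM in the other, a log2 ratio of 0.87. Gadd45a, a growth arrest gene named here after its values were seen, led the list in the library labelled Adar1-/- and ran the other way, at 46.7 and 25.1 FPKM, a log2 ratio of -0.88.

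Of 12 death and survival targets, 1 was 2-fold lower and 1 was 2-fold higher, and their median was -0.22. Triap1, an inhibitor of apoptosis, had 4.61 FPKM in the library labelled Adar1-/- and was listed at 0 in the other. Bid, a BH3-only activator of BAX, had 1.56 and 6.51 FPKM, a log2 ratio of 1.55. The lower Bid value came from assembled isoforms of 30184 and 32573 bases and the higher from an annotated isoform. Siva1 had the highest level of this list, at 16.6 and 20.3 FPKM. Of 12 metabolism and other targets, Ephx1, an epoxide hydrolase, was 2-fold lower at 6.68 and 1.77 FPKM, a log2 ratio of -1.47 that was -0.88 with annotated isoforms. That call rests on short isoforms of 534 and 571 bases, with 2.72 and 2.62 FPKM in the library labelled Adar1-/- alone. The Ephx1 isoform of 1741 bases ran the other way, at 1.34 and 1.77 FPKM. Ckap2 was highest at 15.7 and 22.03 FPKM. The median of this list was -0.33.

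Among the 18 counted genes of the BCL2 family and caspases, of which Bid was the sole gene past 2-fold, the median was 0.01, and Birc5 was highest at 40.9 and 45.4 FPKM. The 22 cell cycle genes that p53 is known to lower through p21 and the DREAM complex had a median of 0.52. At least 2-fold higher were Cenpe (22.8 and 49.3 FPKM, log2 ratio 1.07) and Top2a (98.7 and 208 FPKM, log2 ratio 1.06), and Cdc20 was lower (36.2 and 16.5 FPKM, log2 ratio -1.10). Mki67, the proliferation marker, was highest at 302 and 582 FPKM, a log2 ratio of 0.94. In liver the median of these 22 cell cycle genes thus lay above 0 and that of the 8 counted genes, Trp53 and its targets, below it. In embryos both medians were below 0, at -0.45 over 4 cell cycle genes and -0.34 over 3 genes. These are smaller sets of genes, so the medians do not compare the tissues.

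**Figure D5:**
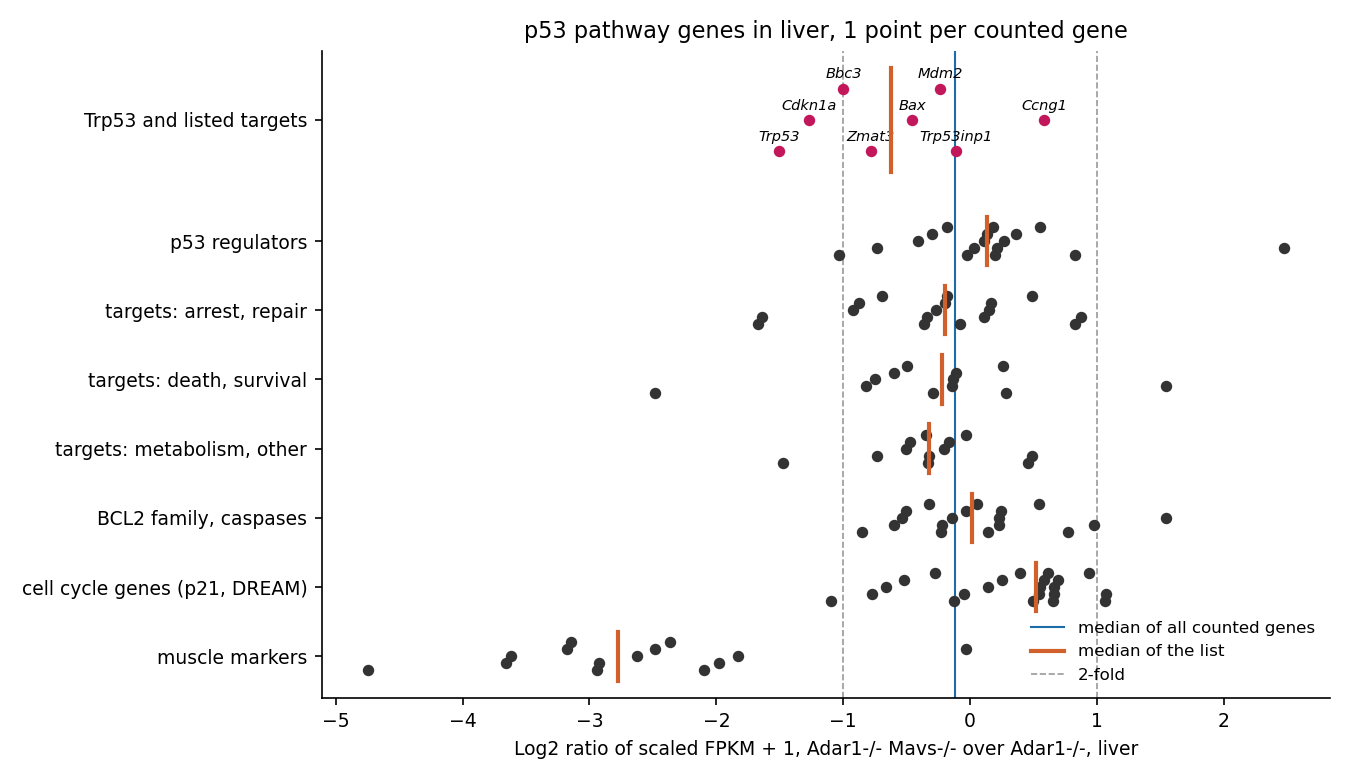
Log2 ratio in liver of each counted gene (1 point each) of Trp53 and its listed targets, the pathway lists and the muscle markers, with the median of each list and of all genes counted. The 8 named genes have a median of -0.62, the cell cycle genes 0.52 and the muscle markers -2.78.

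Cell type markers moved with the liver comparison as well. Of 14 counted muscle markers, 13 were lower by 2-fold or more in the library labelled Adar1-/- Mavs-/-, where the list summed to 15.8 FPKM against 196 FPKM in the library labelled Adar1-/-. Tnnc2 was the muscle marker listed at 0 in both. Cartilage and mesenchyme markers summed to 198 and 93.0 FPKM, with 3 of 7 at least 2-fold lower. Hepatocyte markers, which define the labelled tissue, were at 13445 and 14342 FPKM with none of 11 past 2-fold. Erythroid markers summed to 2113 and 2785 FPKM and macrophage markers to 211 and 268 FPKM, with 2 of 7 and 4 of 12 at least 2-fold higher. The part of these cells in the lower Trp53, Cdkn1a, Bbc3 and Zmat3 values was not tested, and in bulk tissue fewer cells of a type and less RNA per cell cannot be told apart.

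In embryos 8 genes of the 4 p53 lists were counted, none was 2-fold in either direction, and their median was -0.14. Ppm1d, the phosphatase that dampens p53, had 10.6 and 8.76 FPKM, and Apaf1, the apoptosome scaffold, had 11.8 and 7.26 FPKM, log2 ratios of 0.14 and -0.26 after scaling. Sdc1 had 73.7 and 54.7 FPKM and Rpl26 had 427 and 328 FPKM, log2 ratios of -0.01 and 0.04. Of 4 cell cycle genes, whose median was -0.45 with 3 below 0, Aurkb was 2-fold lower at 72.4 and 21.4 FPKM, a log2 ratio of -1.31. That call rests on an Aurkb isoform of 393 bases with 47.6 FPKM in Adar1-/- alone, since the main isoform had 24.7 and 21.4 FPKM before scaling. Top2a was highest at 89.6 and 48.1 FPKM, and Birc5 had 33.2 and 34.98 FPKM. Among cell type markers in embryos, 2 hepatocyte markers summed to 98.4 and 12.3 FPKM, with Vtn at a log2 ratio of -2.55 and Apob at -0.47. Vtn made up most of that sum, with 97.1 FPKM in Adar1-/-. The 2 cartilage and mesenchyme markers summed to 82.9 and 27.6 FPKM but ran opposite ways, Col1a1 at -1.33 and Sox9 at 0.32. Muscle markers summed to 124 FPKM in Adar1-/- and 91.0 FPKM in Adar1-/- Mavs-/-, the latter 122 FPKM after scaling. Of these 5 markers, 4 had a log2 ratio below 0, with a median of -0.32. The sums of the other marker lists in this paragraph are before scaling. Both counted macrophage markers were 2-fold higher, at a sum of 0.960 and 3.91 FPKM, with a 0 for Cd68 in Adar1-/-. The part of these cells in the embryo values was not tested.

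Genes with the most similar pair of log2 ratios (embryo and liver) were sought among 1263 genes with at least 1 FPKM in all 4 libraries, by Euclidean distance over these 2 values. For Trp53 they were H2afv (-0.36 and -1.53), Zbtb7a (-0.30 and -1.39) and Sparc (-0.35 and -1.35). For Mdm2 they were Rspo3, Ezh1 and Gnaz, at distances from 0.052 to 0.060. For Ccng1 they were Gm12618, Amd1 and Sumo2, at distances from 0.040 to 0.058.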

How the data were processed

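RNA of 4 libraries, 1 per group, was analysed from isoform tables. The deposited values are FPKM with bounds and a status, per the file headers, and the deposited coverage signal was used only for depth. The mm9 build, TopHat 1.4.0, Cufflinks 2.2.1 and edgeR 3.4.2 appear, with no role stated, per the submitters' processing notes. For read totals, strand and assembly options the sources used here give nothing.

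Symbols came from GENCODE M21 by Ensembl transcript identifier, of which 86.7% to 90.2% matched. An isoform not listed there, assembled ones included, took the symbol in its Cufflinks gene that it overlaps most. Isoform FPKM were summed per gene, and the bounds' distances combined as the root of summed squares. The library labelled Adar1-/- Mavs-/- was scaled by 1.34 in embryos (972 genes of at least 5 FPKM in both libraries) and 0.995 in liver (6890 genes). An exact 0 can be a failed estimate and is called listed at 0. The pseudocount of 1 understates differences of low genes.

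Python 3.11.15, numpy 2.4.6 and pandas 2.3.3 were used, and the computation was tested on simulated data. The genes and lists were chosen with earlier results of these data known. Named were all 9 genes, up to 4 genes per list past 2-fold and the highest of each list, and the 3 nearest genes.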

Additional observations from a re-analysis of the deposited data

How the results depend on the processing

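No paired analysis was possible because each group holds 1 library, which also means that leaving out a library was not done. Depth limits the genes near 1 FPKM: Cdkn1a, Zmat3, Pmaip1 and liver Trp53.

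Other scalings changed the log2 of the embryo scaling factor by -0.42 (FPKM as deposited), -0.94 (TPM) and 0.14 (upper quartile). In liver the changes were 0.01, -0.32 and 0.13. The log2 ratios shifted by less, least at low levels, because 1 is added to each FPKM. Liver Cdkn1a, for example, went from -1.27 to -1.34 with TPM. The median of the 3 embryo genes became -0.72 as deposited, -1.17 with TPM, -0.0766 with estimates of status OK and -0.70 with every isoform over the gene, an alternative chosen after seeing the data. Of them 2 were 2-fold lower with TPM, 1 with every isoform, and 1 higher with status OK. The embryo p53 lists had medians of -0.53 as deposited, -0.92 with TPM and -0.34 with status OK. Of their 8 genes, 1 was 2-fold lower at a pseudocount of 0.1 and 2 were with TPM.

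In liver the median of Trp53 and its targets was -0.92 at a pseudocount of 0.1, -0.29 with annotated isoforms and -0.23 from 5 FPKM up. At least 2-fold lower were 4 of 8, 1 of 5 and 0 of 3 genes in that order, and 1 of 7 was higher with status OK. Annotated isoforms and the filter of 5 FPKM leave out genes, Trp53 and Cdkn1a among them. In the liver p53 lists 8 of 57 genes were 2-fold lower at a pseudocount of 0.1 and 8 of 57 with TPM. With annotated isoforms 9 of 49 were lower, and from 5 FPKM up 3 of 38. Higher were 4 of 49 (annotated isoforms) and 5 of 51 (status OK). The share over all genes counted was not computed under the alternatives, in embryos or liver. None of these counts can therefore be read as particular to p53 genes. Trp53 has no value from annotated isoforms, and liver Ccng1 none with status OK. The cause was not tested. Beside these, 77 summaries stayed close, and of the values for single genes and single lists 120 stayed close, 56 moved and 0 changed the sign of a 2-fold call. Only liver Trp53 and Cdkn1a were 2-fold as reported among these, so that 0 covers them alone. Signs of smaller values did change, for embryo Trp53 and Ccng1, for liver Mdm2, Zmat3 and Trp53inp1, and for some lists.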
